A study of Homo sapiens with 12 samples.

Results

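Of the 12 arrays in the series, 6 are described here, the 3 labelled GD2- and the 3 labelled CD24high, chosen by their titles and set against each other over 54613 probe sets after 62 control probe sets had been left out. The study separated HMLER cells by flow cytometry in 2 ways, by the ganglioside GD2 and by the surface proteins CD44 and CD24, and measured each sorted population on single-colour Affymetrix arrays. Cells without GD2 and cells with much CD24 are both treated as the non-stem population of their own sort, and the comparison asks how alike the arrays labelled as these populations were. The 6 remaining arrays, 3 labelled GD2+ and 3 labelled CD44high, carry the labels of the populations treated as stem-like. They make the corresponding comparison and share no array with the main one. Marker levels on the arrays labelled GD2+, which lay nearer to CD24high for several genes, are given below.

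All 4 groups were the same cell line with the same transforming alleles and no treatment, grown in mammary epithelial medium mixed 1:1 with DMEM/F12. HMLER cells are human mammary epithelial cells immortalized with telomerase and the SV40 early region and then transformed with an oncogenic Ras gene, so the controls carry Ras as well. The labels do not say whether the line was 1 clone, or whether the 3 arrays of a group came from separate cultures or separate sorts. The p-values therefore measure only the spread between these arrays. In bulk RNA, fewer cells of a type and less RNA per cell cannot be told apart. Every array labelled GD2- lies in the GD2 sort and every array labelled CD24high in the CD44/CD24 sort, so the sort, or array set, and the population cannot be told apart in this comparison.

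Epithelial cells are held together by cadherin and claudin junctions and carry keratin filaments, and in the mammary gland the basal layer adds the transcription factor p63 and basal keratins. In the epithelial-mesenchymal transition, ZEB, TWIST and SNAIL transcription factors repress junction genes through E-box motifs while collagens and other matrix genes are switched on, and this programme has been tied to stem-like properties in mammary cells. GD2 is made from lactosylceramide by a series of glycosyltransferases, with ST8SIA1 (GD3 synthase) and B4GALNT1 (GM2/GD2 synthase) as the last dedicated steps.

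Promoter sequences are shown for 3 genes that stand for the epithelial and interferon-stimulated lists described here, a pair of epithelial genes that were lower and 1 interferon-stimulated gene that was higher on arrays labelled GD2-. The motifs and these 3 genes were chosen after the matches had been seen. Each run holds 250 bases before and 50 bases after the RefSeq gene start in GRCh38.p14, read 5′ to 3′ on the gene's strand. Capitals mark the E-box CACCTG, on either strand, in RAB25 and S100A14, and an interferon response motif (TTTC, any 2 bases and TTTC), on either strand, in IFIT1. RAB25 (a Rab GTPase of epithelial vesicle traffic) is at chr1:156060910-156061209 on the plus strand and S100A14 (an epithelial calcium-binding protein) at chr1:153616276-153616575 on the minus strand. IFIT1 (an interferon-induced antiviral protein) is at chr10:89392373-89392672 on the plus strand.
RAB25: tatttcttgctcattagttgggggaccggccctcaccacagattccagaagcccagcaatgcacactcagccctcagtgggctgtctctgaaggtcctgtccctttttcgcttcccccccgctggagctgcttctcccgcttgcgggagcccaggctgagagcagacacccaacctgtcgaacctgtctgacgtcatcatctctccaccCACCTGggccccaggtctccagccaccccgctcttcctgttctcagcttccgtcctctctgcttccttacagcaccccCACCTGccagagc
S100A14: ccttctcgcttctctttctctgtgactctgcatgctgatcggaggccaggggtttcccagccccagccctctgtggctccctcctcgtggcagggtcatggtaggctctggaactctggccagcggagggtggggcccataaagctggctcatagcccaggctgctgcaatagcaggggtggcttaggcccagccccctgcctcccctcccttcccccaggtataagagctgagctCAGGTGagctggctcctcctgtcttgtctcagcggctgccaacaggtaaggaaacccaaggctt
IFIT1: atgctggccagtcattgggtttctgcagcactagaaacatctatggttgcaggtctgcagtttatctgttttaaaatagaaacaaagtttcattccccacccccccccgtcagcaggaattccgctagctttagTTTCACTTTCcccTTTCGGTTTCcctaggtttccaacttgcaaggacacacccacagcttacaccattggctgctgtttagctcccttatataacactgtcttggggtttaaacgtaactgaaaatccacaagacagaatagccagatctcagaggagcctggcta
RAB25 held 2 matches, S100A14 1 and IFIT1 2. CACCTG was present in 20.6% of 35116 RefSeq promoters of this length, in 10 of 18 promoters found for 14 of the 26 epithelial genes, and in 6 of 33 promoters found for 22 of the 34 mesenchymal genes. The interferon response motif was present in 3.57% of all promoters and in 14 of 17 promoters found for 12 of the 16 interferon-stimulated genes. These matches are a description of the sequence windows.

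CD24 was highest on the arrays labelled CD24high, whereas ST8SIA1, an enzyme needed to make GD2, was higher on the arrays labelled GD2-. EPCAM, an epithelial adhesion molecule, read 6.04, 5.66 and 4.56 log2 units on the arrays labelled GD2- and 12.50, 12.21 and 12.46 on those labelled CD24high. The groups were far apart, with a difference of -6.97 (SE 0.40), or 125-fold, at an adjusted p of 3.24e-07 by limma with Benjamini-Hochberg adjustment. CD24, the glycoprotein used in the other sort, read 8.54, 7.88 and 7.66 against 12.57, 13.04 and 13.59, a difference of -5.04 (SE 0.26, limma adjusted p = 1.53e-07). Its probe set is of the x_at kind, which may also bind related transcripts, and CD24 has near-identical copies in the genome, so its level is uncertain in that respect. ST8SIA1, the GD3 synthase, read 7.69, 6.99 and 8.23 on arrays labelled GD2- against 3.77, 3.29 and 4.30, and was at least 4.57-fold higher (limma adjusted p = 4.12e-06). Detection calls were not used here. Where every array of the dimmer group lay below the median of its own array, that median (5.423 to 5.469) took the place of the dimmer level and the fold is given as a lower bound, a rule chosen after the values were seen. Log2 differences of such genes are fitted values, not bounds.

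Arrays labelled GD2+ read 3.63, 3.81 and 4.27 for ST8SIA1, in the range of CD24high, while those labelled CD44high read 6.18, 5.71 and 5.77. EPCAM read 12.001, 10.82 and 10.67 on arrays labelled GD2+ and 10.66, 9.83 and 10.20 on those labelled CD44high. In order of EPCAM level the groups ran CD24high, GD2+, CD44high and GD2-, with GD2+ and CD44high as neighbours that did not differ beyond their spread (difference 0.93, SE 0.40, limma adjusted p = 0.107). Short codes in the sample descriptions end in p on the arrays titled GD2- and in m on those titled GD2+, and no source used here says what these letters mean. The text therefore speaks of arrays labelled GD2- throughout, and any direction given holds for the labels as deposited. Whether the titles GD2+ and GD2- are exchanged was not tested. If they were, the main comparison would set GD2+ against CD24high cells.

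**Figure D1:**
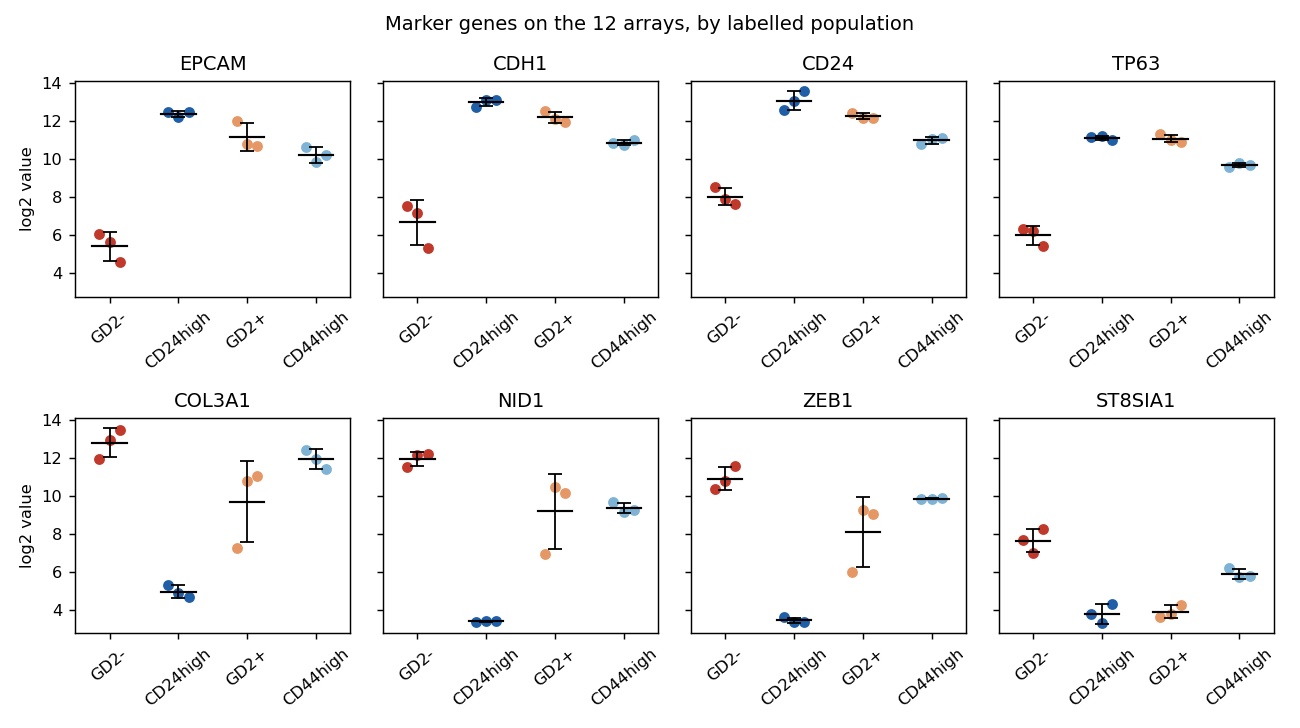
Log2 values of 8 marker genes on each of the 12 arrays (points), grouped by labelled population, with group means (bars) and SD. The 3 arrays labelled GD2- sit lowest for EPCAM, CDH1, CD24 and TP63 and highest for NID1, ZEB1 and ST8SIA1, while the CD24high arrays take the opposite place for EPCAM, CDH1, CD24, COL3A1, NID1 and ZEB1.

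The authors' deposited tables of differential genes bear on the same point. After looking at several differences between labelled groups, the deposited log2 folds were set against the array differences within each sort, over genes with 1 table row and 1 probe set, taking the CD24-rich side as the denominator. Folds in the authors' deposited table for GD2 correlated across 32 genes with CD44high minus CD24high arrays at r = 0.9983 and with GD2- minus GD2+ arrays at r = 0.9034. Folds in the authors' deposited table for CD44/CD24 correlated across 33 genes with GD2- minus GD2+ arrays at r = 0.9861 and with CD44high minus CD24high arrays at r = 0.8851. Each table therefore tracked the arrays labelled for the other sort more closely. The sign was shared by 32 of 32 and 33 of 33 genes in all these settings, after the folds of both tables had been inverted. The inversion set the overall direction, which is not a separate result, but not the agreement among genes. Before it, the folds of these genes all ran opposite to the array differences given here. The CD44/CD24 table is named as CD44high/CD24low against CD44low/CD24high. If its first group is the numerator, its folds as deposited conflict in direction with the CD44high minus CD24high arrays. Genes are not independent replicates, the sources used here do not say how the deposited folds were made, and the labels were kept as deposited. EPCAM, for example, had, after inversion, a log2 fold of -7.90 in the authors' deposited table for CD44/CD24, against -5.74 for GD2- minus GD2+ arrays.

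**Figure D2:**
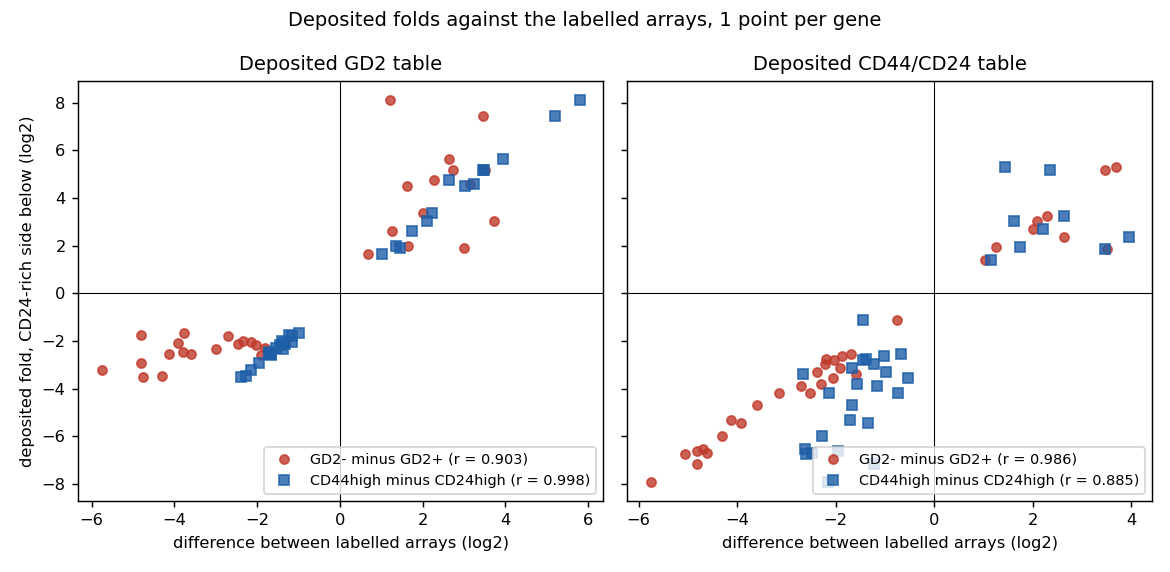
Log2 folds of the authors' deposited tables after inversion (vertical) against differences between labelled arrays (horizontal, log2), 1 point per gene, with the correlation for each difference. In the GD2 table the points of CD44high minus CD24high form the tight line (r = 0.998), and in the CD44/CD24 table those of GD2- minus GD2+ do (r = 0.986).

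The control ratios of 3′ over 5′ signal differed between the array sets. The control probe sets at the 3′ and 5′ ends of GAPDH and actin measure how far the labelled copies reach towards the 5′ end. RNA quality and labelling cannot be told apart in them, and the cause of the difference was not tested. The log2 ratio of 3′ over 5′ for GAPDH was 0.02, -0.06 and 0.04 on arrays labelled GD2- and 1.67, 1.33 and 1.73 on those labelled CD24high. For actin it was 0.26, 0.25 and 0.21 against 3.79, 3.42 and 4.66. The groups did not overlap for either transcript. The differences were -1.58 for GAPDH and -3.72 for actin, each with p = 0.1 in a two-sided exact permutation test, the smallest value that 3 arrays against 3 can give. Arrays labelled GD2+ resembled those labelled GD2-, and arrays labelled CD44high those labelled CD24high, and over 6 arrays against 6 the exact two-sided p was 0.002165 for both transcripts, again the smallest possible. Actin's 3′ control read between 14.16 and 14.37 on all 12 arrays, while its 5′ control read 13.91 to 14.30 in the GD2 sort and 9.58 to 10.96 in the CD44/CD24 sort. The part of this contrast in any single gene's difference was not tested beyond the comparisons given below.

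**Figure D3:**
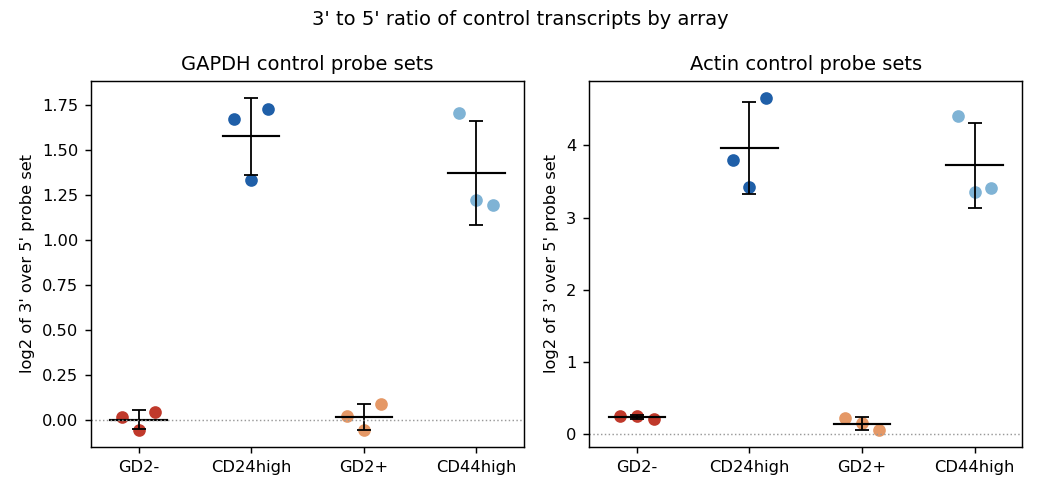
Log2 ratio of the 3′ over the 5′ control probe set for GAPDH (left) and actin (right) on each array, with group means and SD. Both GD2 groups lie near 0, and both CD44/CD24 groups lie above 1 for GAPDH and above 3 for actin.

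Between the 3 arrays labelled GD2- and the 3 labelled CD24high, 37.5% of all probe sets were called at an adjusted p below 0.05 in limma, 9565 higher (17.5%) and 10901 lower (20%). With a minimum of 2-fold the counts were 4847 higher (8.88%) and 2835 lower (5.19%). The corresponding comparison, GD2+ minus CD44high, called 28.4% of probe sets, 7256 higher (13.3%) and 8258 lower (15.1%). Across probe sets the differences of these comparisons, which share no array, correlated at r = 0.509. The medians over all probe sets were -0.08 and -0.07.

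A shift that adds equally to both comparisons across the array sets cancels in the difference between them, called here the difference between the sorts, which is GD2- minus CD24high less GD2+ minus CD44high. This difference was called for 9.17% of probe sets, 2774 higher and 2233 lower. Of the 20466 probe sets called between GD2- and CD24high arrays, 8961 (43.8%) were also called in the same direction between GD2+ and CD44high arrays with no call in the difference between the sorts. A further 3777 (18.5%) were called in the difference between the sorts with the same sign, 2000 higher and 1777 lower. Of these 3777, 2390 were not called between GD2+ and CD44high, 865 were called there in the opposite direction, and 522 in the same direction. For 7576 (37%), neither test gave a call, and 152 had a difference between the sorts of the opposite sign. With the GAPDH ratio of each array as a covariate, 162 probe sets were called between GD2- and CD24high in place of 20466, whereas 4527 in place of 5007 were called in the difference between the sorts. With the actin ratio these counts were 85 and 4846. The ratio separates the array sets without overlap, so the covariate leaves little to estimate the first comparison from. A shift shared by a sort cancels in the difference between the sorts, so the covariate could move that count little.

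**Figure D4:**
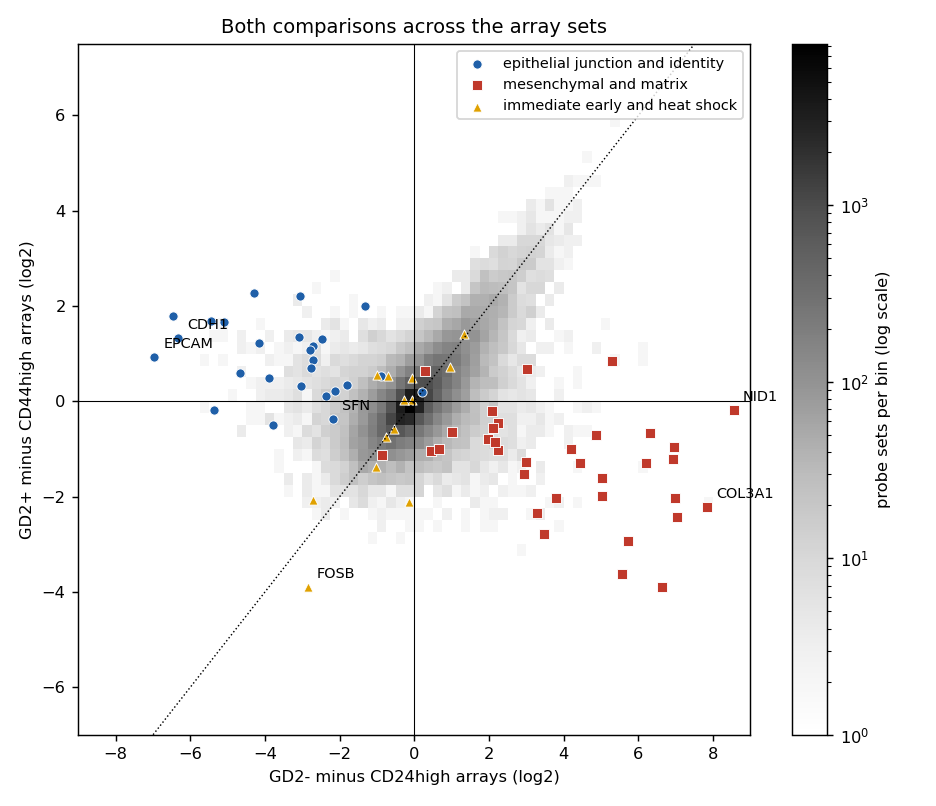
Difference of GD2- minus CD24high arrays (horizontal) against GD2+ minus CD44high arrays (vertical), both in log2 units, with the number of probe sets per bin in grey on a log scale and members of 3 gene lists as coloured points. The grey cloud runs along the dotted line of equal differences, epithelial genes (blue circles) lie mainly at the upper left and mesenchymal genes (red squares) mainly at the lower right, and FOSB lies near the line.

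Genes of epithelial junctions and identity were lower on arrays labelled GD2-. Of 26 genes, 25 were lower, against 20% of all probe sets, none was higher and CLDN3, a claudin, was not called, with a median difference of -3.05. For this set the arrays did not overlap in 25 genes, against 28.4% of all probe sets in this direction. Between GD2+ and CD44high arrays 13 of the same genes were higher and 1, SFN, was lower, against 13.3% and 15.1% of all probe sets, with a median of 0.90, and 24 of 26 were lower in the difference between the sorts, called for 4.09% of all probe sets in this direction. CLDN3 and CLDN7 were the exceptions. CDH1, or E-cadherin, read 7.54, 7.15 and 5.32 on arrays labelled GD2- against 12.76, 13.10 and 13.13, and was 80.4-fold lower (SE 0.43 log2 units, limma adjusted p = 1.01e-06). Another CDH1 probe set read between 4.05 and 4.998 on all 6 arrays and was not called (-0.49, limma adjusted p = 0.0642). ESRP1, a splicing regulator of epithelial isoforms, read 5.08, 4.77 and 4.01 against 10.94, 11.12 and 11.21, a difference of -6.47 (SE 0.29, limma adjusted p = 7.27e-08). The S100A14 gene, whose promoter is printed above, read 7.05, 6.89 and 6.28 against 11.70, 12.01 and 11.82, and was 34.4-fold lower. RAB25, chosen with its promoter, read 5.74, 5.02 and 4.34 against 9.23, 9.33 and 9.46, and was 19.8-fold lower (limma adjusted p = 1.33e-05). MAL2, a transport protein of polarized cells, and OVOL2, an epithelial transcription factor, were lower, with differences of -5.46 and -2.71.

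Over the 12 arrays the genes most like EPCAM among 280 annotated genes were CDH3 (r = 0.9916), ESRP1 (0.9901), CDH1 (0.9892), KRT6B (0.9878) and S100A14 (0.9819). The 12 points fall into 4 groups, from sorts that also differ in their control ratios, so these values rank likeness only.

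All 18 genes of the basal list were lower, against 20% of all probe sets, with a median of -3.12. Of these, 17 were also lower in the difference between the sorts, against 4.09% of all probe sets. TP63, the transcription factor of basal cells, read 6.33, 6.21 and 5.44 on arrays labelled GD2- against 11.14, 11.22 and 11.01, and was 35.1-fold lower (limma adjusted p = 3.27e-08). Other TP63 probe sets gave -0.72, which was not called, and -0.44. With the brightest probe set, arrays labelled GD2+ differed from CD24high by less than the spread between arrays, with a difference of -0.05 (SE 0.20, limma adjusted p = 0.88). COL17A1, a hemidesmosome collagen, read 5.66, 5.92 and 5.84 against 9.53, 9.56 and 9.25, and was 12.5-fold lower (limma adjusted p = 1.24e-08). KRT5 and KRT14, the paired basal keratins, were lower, with differences of -2.59 and -2.26, and read at least 10.51 on all 6 arrays. KRT6B and KRT6A, stress keratins, differed by -6.30 and -4.30, although these paralogs are similar enough that probe sets may share signal. TRIM29, a p63-associated protein, had a difference of -4.11.

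Among 18 squamous and cornified envelope genes 17 were lower, against 20% of all probe sets, none was higher and S100A8 was not called, with a median of -2.63. SERPINB2, a protease inhibitor of keratinocytes, read 4.58, 4.31 and 4.39 on arrays labelled GD2- against 9.76, 11.66 and 11.83, and was at least 49.8-fold lower (limma adjusted p = 4.35e-06). SPRR1B, a cornified envelope precursor, differed by -6.01, the kallikrein KLK5 by -3.54 and FGFBP1, an FGF carrier, by -5.18. Of 13 luminal genes 8 were lower and 1, XBP1, was higher, against 20% and 17.5% of all probe sets, with a median of -1.01, and XBP1 was not called without the third array labelled GD2-. KRT8 and KRT18, keratins of simple epithelium, differed by -1.49 and -2.50, ERBB3, a neuregulin receptor, by -3.81 and FOXA1, a luminal transcription factor, by -1.11. FOXA1, ESR1 and KRT19, among the 8 lower luminal genes, were dim, with the means of both groups below the array medians.

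Matrix and other mesenchymal genes were higher. Of 34 genes 30 were higher, against 17.5% of all probe sets, 1 was lower, and COL5A1, TGFBI and THBS1 were not called, with a median of 3.99. The arrays did not overlap in the higher direction for 31 genes, against 20.4% of all probe sets. In the difference between the sorts 32 of 34 were higher, called for 5.08% of all probe sets in this direction, and between GD2+ and CD44high 17 were lower, against 15.1% of all probe sets, and none higher, with a median of -1.08. NID1, a basement membrane linker, read 11.52, 12.12 and 12.21 on arrays labelled GD2- against 3.38, 3.39 and 3.42, and was at least 90.7-fold higher (fitted difference 8.55, SE 0.70, limma adjusted p = 3.7e-06). COL3A1, the fibrillar collagen III chain, read 11.95, 12.94 and 13.48 against 5.33, 4.87 and 4.66 with its brightest probe set, a difference of 7.84 (SE 0.81, limma adjusted p = 2.15e-05). The other probe sets of COL3A1 gave 7.88 and 7.41.

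Values for the 3 matrix genes COL1A2, FBN1 (fibrillin) and VCAN (versican) were 7.03, 6.99 and 6.94, and the 3 arrays of one group lay beyond those of the other in each. COL1A1 was higher by 6.93 with its brightest probe set and by 7.17 with another, but a further probe set was lower (-0.39). GREM1, a BMP antagonist, read 8.62, 10.76 and 12.74 against 3.99, 4.19 and 4.06, with a spread on the GD2- arrays (SD 2.06) that exceeded that of the other genes named in this list. VIM (vimentin) and FN1 (fibronectin), which were bright on all arrays, were higher by 2.07 and 1.00. AXL, a receptor tyrosine kinase, was the member that was lower (-0.88), as it was between GD2+ and CD44high (-1.13).

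The first array labelled GD2+ stood apart from the others of its group in these genes. COL3A1 read 7.23 on it and 10.79 and 11.06 on the others, NID1 read 6.91 against 10.45 and 10.16, and ZEB1 read 5.97 against 9.23 and 9.04. Without this array 32 of 34 mesenchymal genes were higher and 24 of 26 epithelial genes lower in the difference between the sorts. Of 54613 probe sets 2728 were then higher and 2223 lower.

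Among 7 transcription factors of the epithelial-mesenchymal transition 5 were higher, ZEB1, ZEB2, TWIST1, PRRX1 and TCF4, against 17.5% of all probe sets, and all 5 were higher in the difference between the sorts, against 5.08%. ZEB1, an E-box repressor, read 10.37, 10.78 and 11.58 on arrays labelled GD2- against 3.61, 3.34 and 3.38, and was at least 44.1-fold higher (limma adjusted p = 7.22e-06). PRRX1 was higher by 6.63, ZEB2 by 4.35 and TWIST1 by 3.82. SNAI2 was bright in both groups and not called (-0.38, limma adjusted p = 0.378), and SNAI1 was slightly lower (-0.39, limma adjusted p = 0.0465). SNAI1 was dim, with group means of 4.90 on GD2- and 5.30 on CD24high, both below the array medians. TCF4 was higher by 1.53 with its brightest probe set, but 2 of its other 6 probe sets were not called.

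Markers of other cell types were read alongside. All 12 fibroblast genes were higher, against 17.5% of all probe sets, with a median of 4.61, and 9 of the 12 also stand in the mesenchymal or transcription factor lists. Their mean log2 level was 10.12 to 11.99 on arrays labelled GD2-, 5.91 to 6.13 on CD24high, 6.995 to 8.67 on GD2+ and 9.44 to 10.09 on CD44high. PDGFRA, a receptor of fibroblasts, was higher by 4.33, THY1 by 2.93, DCN (decorin) by 4.88 and LUM (lumican) by 3.79. The labels describe 1 sorted cell line, and the part of another cell type in these values was not tested.

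The leukocyte-defining genes PTPRC, LYZ and HLA-DRA read at most 5.10 on all 6 arrays and were not called, and CD14 read 9.26 on the first array labelled GD2- and 5.33 to 7.04 on the other 5. The mean over the 8 leukocyte genes was 6.08 to 6.64 on arrays labelled GD2- and 5.57 to 5.89 on CD24high. SRGN, a proteoglycan also made outside leukocytes, was higher by 4.69, LAPTM5 was higher by 1.08, and CORO1A was lower (-1.87). The 5 endothelial genes PECAM1, CDH5, VWF, KDR and TEK were not called, with differences from -0.16 to 0.15, and their mean was 4.42 to 4.63 and 4.39 to 4.66 in the compared groups. PECAM1 was higher in the difference between the sorts, called for 5.08% of all probe sets in this direction. Of its 3 probe sets 1 was called higher between GD2- and CD24high.

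**Figure D5:**
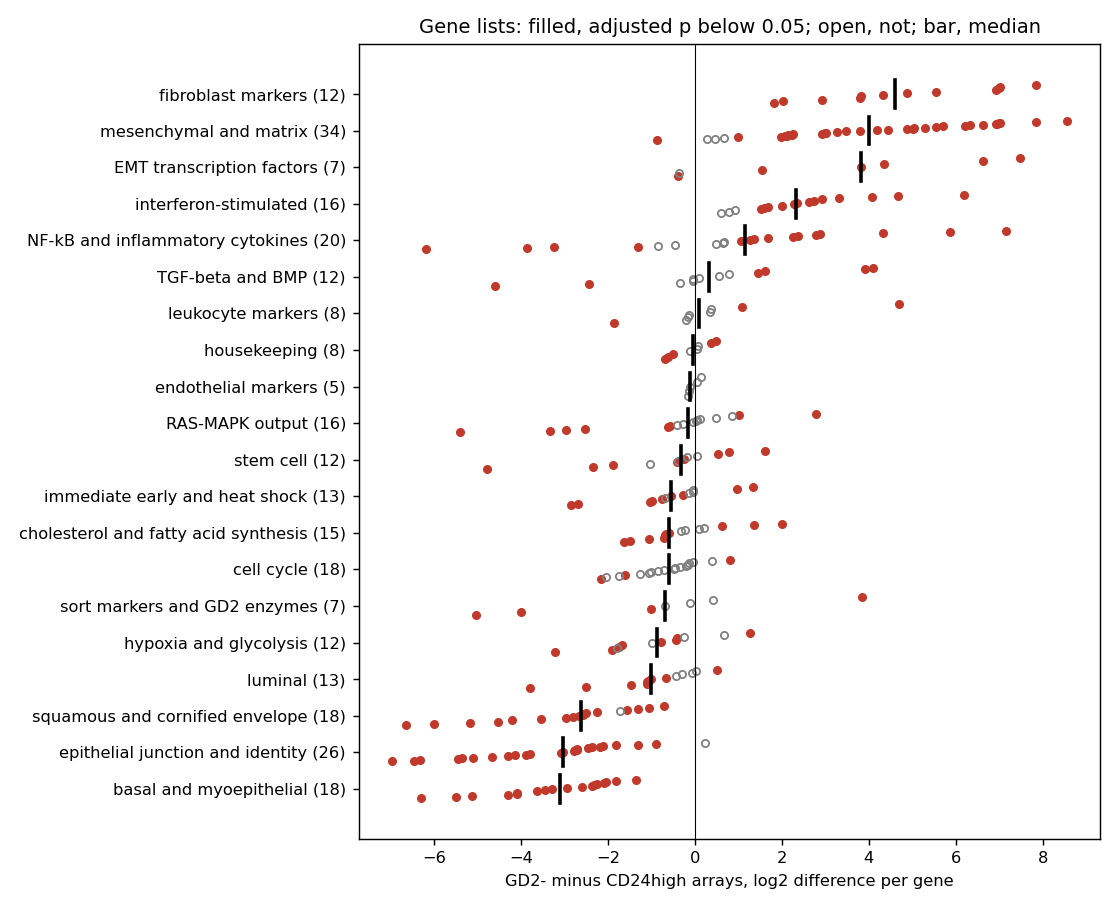
Difference of GD2- minus CD24high arrays (log2) for each gene of 20 lists, with the number of genes in brackets, the median as a black bar and genes past an adjusted p of 0.05 filled. Fibroblast, mesenchymal and interferon-stimulated genes lie mainly to the right of 0, and basal, epithelial and squamous genes mainly to the left.

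Genes induced by interferon were higher on arrays labelled GD2-. Of 16 genes 13 were higher, against 17.5% of all probe sets, none was lower and 3 were not called, IFIT2 and OAS1 among them, with a median of 2.32. In the difference between the sorts 7 of 16 were higher, against 5.08% of all probe sets, and 5 of 16 without the first array labelled GD2+. IFI44L, an interferon-induced protein, read 9.29, 10.03 and 11.32 against 3.98, 4.25 and 3.86, and was at least 27.3-fold higher (limma adjusted p = 6.54e-06). IFIT1, whose promoter is printed above, read 9.14, 10.46 and 11.01 against 7.84, 7.03 and 6.98, a 7.54-fold difference (limma adjusted p = 0.000255). IFITM1, which restricts viral entry, and BST2, or tetherin, were higher by 4.67 and 3.32.

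In the NF-kB and cytokine list 11 of 20 genes were higher and 4 lower, the latter share equal to the 20% of all probe sets called lower and the former above the 17.5% called higher. The median was 1.15, and without the third array labelled GD2- the count of higher genes was 8. PTX3, a soluble pattern receptor, read 11.60, 11.20 and 11.11 against 4.22, 4.38 and 3.83, and was 7.16 log2 units higher. TNFAIP6, a hyaluronan-binding protein, was higher by 5.86 and VCAM1, an adhesion molecule, by 4.31. IL1RN, the interleukin-1 receptor antagonist, went the other way, at 3.86, 4.46 and 4.17 against 9.49, 10.28 and 11.27, and was at least 29.9-fold lower (limma adjusted p = 7.7e-07). The 4 lower genes were IL1A, IL1B, IL1RN and PTGS2.

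Growth factor genes of the Ras and TGF-beta lists moved in both directions. Of 16 genes tied to Ras-MAPK output 2 were higher and 6 lower, with a median of -0.16, against 17.5% and 20% of all probe sets, so that the share of higher genes was below the background. TGFA, an EGF receptor ligand, read 6.76, 5.51 and 5.37 against 10.94, 11.47 and 11.50, and was 42.8-fold lower (limma adjusted p = 4.2e-07). HBEGF, another such ligand, differed by -3.35 and UPP1 by -2.96, while EREG, or epiregulin, was higher by 2.79. PLAU, the urokinase gene, had a probe set called in each direction, -2.53 with the brighter and 1.196 with the dimmer. Of 12 TGF-beta and BMP genes 4 were higher, TGFB1, ID1, ID2 and ID3, against 17.5% of all probe sets. INHBA and FST, a subunit and an inhibitor of activin, were lower, a share near the 20% of all probe sets, FST with a difference of -4.60.

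Of 12 stem cell genes 3 were higher, near the 17.5% of all probe sets, and 5 lower, against 20%, with a median of -0.33. ALDH1A1 and LGR5, among the 5 lower genes, were dim, with the means of both groups (at most 4.90) below the array medians. ALDH1A3, a retinaldehyde dehydrogenase, read 7.86, 7.08 and 8.21 against 11.74, 12.45 and 13.33, a 27.7-fold difference (limma adjusted p = 2.01e-05). ABCG2, a drug efflux pump, differed by -2.36, whereas NOTCH3 was higher by 1.61, FZD7 by 0.79 and PROCR by 0.53. PROCR was also higher between GD2+ and CD44high. In the difference between the sorts NOTCH3 and FZD7 were higher and PROCR was lower, called for 5.08% and 4.09% of all probe sets in these directions.

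The GD2 pathway showed unequal differences. ST6GALNAC5, a sialyltransferase acting on gangliosides, read 3.43, 3.43 and 3.20 on arrays labelled GD2- against 7.29, 7.35 and 7.44, a difference of -4.01 (SE 0.12, limma adjusted p = 1.24e-08). B4GALNT1, which turns GD3 into GD2, read 6.90, 6.91 and 6.67 against 7.19, 6.94 and 6.74 and was not called (-0.13, SE 0.14, limma adjusted p = 0.495). UGCG, the glucosylceramide synthase that starts the pathway, differed by -1.01, with 10.68 on the first array labelled GD2- and 9.26 and 9.35 on the others, and the call was lost without any 1 of 5 of the 6 arrays. ST3GAL5, the GM3 synthase, was not called.

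CD44 gave no single answer. Its brightest probe set read 12.36, 12.87 and 12.83 on arrays labelled GD2- against 12.19, 12.38 and 12.27 and was not called (0.40, SE 0.20, limma adjusted p = 0.134). Of its 8 probe sets 4 were higher and 1 lower, over a range from -3.02 to 3.57. The probe set with the largest difference read 10.86, 11.22 and 11.44 against 7.52, 7.22 and 8.08. Its difference between GD2+ and CD44high arrays was 3.55, almost the same, and the difference between the sorts was 0.02. BNIP3, COL1A1, PGK1, PLAU and PLAUR were the other genes with probe sets called in opposite directions, 6 of 121 genes with several probe sets.

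Other genes differed in the same direction in both comparisons across the array sets. ID1, a BMP target, read 12.92, 11.95 and 10.62 on arrays labelled GD2- against 7.98, 7.52 and 7.70 on CD24high, and was higher by 4.10, with 3.05 between GD2+ and CD44high. TGFB1, the transforming growth factor, was higher by 3.90 and 2.46, and EGR1, an immediate early transcription factor, by 1.34 and 1.41. EGR1 was not called with another of its probe sets (-0.09). FOSB, an AP-1 subunit, was lower in both (-2.86 and -3.91), reading 7.43, 6.07 and 7.99 against 10.44, 8.51 and 11.12. Its call was lost without the third array labelled CD24high (adjusted p = 0.0539 in limma). ATF3, a stress-induced transcription factor, was lower in both (-2.70 and -2.08), as was ADM, or adrenomedullin (-1.92 and -1.74). The difference between the sorts was not called for ID1, TGFB1, EGR1, FOSB, ATF3 or ADM.

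In the list of immediate early and heat shock genes 7 of 13 were lower, against 20% of all probe sets, and 2 higher, near the 17.5% of all probe sets, with a median of -0.55. Of the 9 called genes 5 were lower and 1 was higher in both comparisons. Over all called probe sets, 43.8% were called the same way in both with no difference between the sorts called. A further 2.55% were called the same way in both with such a difference of the same sign. In the difference between the sorts 1 gene, the chaperone DNAJB1, was lower, against 4.09% of all probe sets. Of 12 hypoxia and glycolysis genes 7 were lower and 1, P4HA1, was higher, against 20% and 17.5% of all probe sets, with a median of -0.89. Of these called genes 4 were lower in both comparisons, to be read beside the same shares over all called probe sets. BNIP3 and PGK1, among the 7 lower genes, each had another probe set called higher (1.25 and 1.92). VEGFA was not called with its brightest probe set, but 3 of its 4 probe sets were called higher. NDRG1, a hypoxia-induced gene, read 10.23, 10.22 and 11.10 against 13.30, 13.95 and 13.96, and was lower here (-3.21) and between GD2+ and CD44high arrays (-1.13), with a called difference between the sorts. Of 15 genes of cholesterol and fatty acid synthesis 8 were lower, against 20% of all probe sets, and 3 higher, near the 17.5% of all probe sets. SQLE, the squalene epoxidase, was lower in both comparisons (-1.64 and -1.03), whereas the desaturases FADS1 and FADS2 were higher by 2.00 and 1.35 and also higher in the difference between the sorts. DHCR7, the last enzyme of cholesterol synthesis, was lower (-1.50) with its brightest probe set.

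Few cell cycle genes were called, and 1 array moved their number. Of 18 genes 2 were lower, AURKA and MCM2, and 1, TYMS, was higher, below the 37.5% of all probe sets called. AURKA, a mitotic kinase, read 11.001, 11.14 and 7.48 on arrays labelled GD2- against 12.31, 11.79 and 12.05, and MCM2, a replication licensing factor, 11.32, 11.26 and 8.66 against 12.31, 11.92 and 11.87. The third array labelled GD2- was low for both. Its mean over the list was 8.21, the lowest of its group, while the highest was 11.46. This array correlated with the others of its group at 0.9738 to 0.9768 across probe sets, against 0.9873 between those. Without it 7 of 18 cell cycle genes were higher and 3 lower, against 9585 and 10107 of 54613 probe sets in that setting. AURKA and MCM2 were among the lower genes, with smaller differences (-0.97 and -0.74). The call of AURKA and of MCM2 was lost when any single CD24high array was left out.

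Of 8 housekeeping genes 2 were higher and 3 lower, against 17.5% and 20% of all probe sets, and GAPDH, ACTB and RPLP0 were not called. GAPDH differed by 0.07 (SE 0.08) and ACTB by -0.11 (SE 0.08), in contrast to the 5′ control probe sets of the same transcripts. TBP, a basal transcription factor, was lower (-0.69) and B2M, the light chain of MHC class I, was higher by 0.48.

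Arrays labelled GD2+ were also set against the same CD24high arrays. Of all probe sets 29.6% were called, 14% higher and 15.7% lower. Because this comparison shares the CD24high arrays with the main one, values are given side by side only. For the epithelial list the medians were -3.05 on arrays labelled GD2- and -0.67 on arrays labelled GD2+, for the basal list -3.12 and -0.34, for the mesenchymal list 3.99 and 1.69, and for the interferon list 2.32 and 0.83. EPCAM differed by -1.23, COL3A1 by 4.74 and ZEB1 by 4.64 on arrays labelled GD2+.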

How the data were processed

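Total RNA was primed at the poly(A) end, amplified as biotin-labelled cRNA and hybridized to Affymetrix arrays, per the labels' protocols. The deposited values of 54675 probe sets on 12 arrays are on a log2 scale, as their range shows. The authors' background correction, normalization and probe summary are steps not given in the sources used here. Array medians lay between 5.423 and 5.469. The authors' deposited tables give a fold (ratio) and an adjusted p-value per gene symbol; only the ratio was used, after log2, and the deposited p-values were not used.

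The deposited files do not pair probe sets with genes. For this reason 465 probe sets of 281 genes were named from recalled annotation of the HG-U133 Plus 2.0 array, with no probe table at hand. Within 121 genes with several probe sets, the median correlation of 296 pairs over the arrays was 0.838, and 77.4% of pairs exceeded 0.5. A gene is given by its probe set with the highest mean over all arrays.

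Arrays were grouped by title. limma 3.58.1 in R 4.3.3 was fitted to all 12 arrays with a mean for each of 4 groups (8 residual degrees of freedom) and Benjamini-Hochberg adjustment over 54613 probe sets (threshold 0.05). Control ratios were tested by exact permutation over arrays. The members, the 20 gene lists and the motifs were chosen with earlier results of these data known. Named genes are EPCAM, COL3A1, CD24, CD44, ST8SIA1 and B4GALNT1, up to 10 per direction with the largest difference among genes past both tests whose arrays do not overlap, the 5 largest per direction called the same way in both comparisons, up to 4 per list by adjusted p, and, added afterwards, called cell type markers. Other names account for a list's exceptions. A list's counts include genes that are not reported here by name.

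For arrays labelled GD2- and CD24high that carry the same number, deviations from the group mean correlated at r = 0.14, 0.10 and 0.13 across probe sets. For GD2+ and CD44high the values were 0.21, 0.19 and -0.01. Arrays of unlike number were not correlated, so a pairing was not established, and the labels state none. On simulated data for GD2- minus CD24high, 17.9%, 67.2% and 95.5% of probe sets changed by 0.5, 1 and 2 log2 units were recovered, with 3 false calls among 123. For the difference between the sorts 0%, 29.9% and 74.2% were recovered, and 2 of 71 calls were false. The simulation changed only 67, 67 and 66 of 54613 probe sets at these sizes, on GD2- arrays alone. It used independent normal noise and no shift between the array sets. In the data 37.5% of probe sets were called, so these rates describe the simulated setting only. Figures were drawn with matplotlib 3.10.9 in Python 3.11.15. Alternatives were quantile normalization, median centring, filters on dim or multi-gene probe sets, a trended variance, other samples in the fit, the control ratios as covariates, a replicate block, a fold minimum, other probe sets of a gene and leaving out each array. The number of arrays limits the precision.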

Additional observations from a re-analysis of the deposited data

Results flagged for a closer look

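The difference between GD2- and CD24high arrays was itself different from that between GD2+ and CD44high arrays for 2774 probe sets that were higher and 2233 that were lower (limma, adjusted p below 0.05). Among named genes, those called in opposite directions by the 2 comparisons are given one by one, a restriction chosen after the values were seen. Values are the difference between the sorts in log2 units.

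Of epithelial genes, ESRP1 stood at -8.26, CDH1 at -7.66, S100A14 at -6.76, OVOL2 at -3.58 and the sort marker CD24 at -6.33. Of basal genes, KRT15 stood at -7.31, TP63 at -6.53, COL17A1 at -5.84, TRIM29 at -5.69, KRT6A at -4.75 and KRT5 at -3.25. The squamous genes SPRR1B and KLK5 stood at -7.66 and -7.09, and the keratins KRT18 and KRT8 of simple epithelium at -3.72 and -2.89. CORO1A, a leukocyte actin regulator, stood at -3.44.

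Of matrix genes, GREM1 stood at 10.53, COL1A2 at 9.45, FBN1 at 9.02, LUM at 5.82, COL5A2 at 5.19 and FSTL1 at 3.00. The surface proteins MME, PDGFRA and THY1 stood at 7.02, 6.38 and 4.46, and the transcription factors ZEB2 and TCF4 at 6.59 and 2.19. TNFAIP6 stood at 7.67, the GD3 synthase ST8SIA1 at 5.83, NOTCH3 at 3.11 and FZD7 at 1.73. With the same probe sets, these 31 genes held their sign and their call in all 603 values from other settings, both control ratios as covariates and each left-out array included. The genes were chosen by their calls in these same arrays, so this steadiness was in part fixed by the choice. The control ratios differ mainly between the sorts, and a shift shared by a sort cancels here, so these covariates could move the values little. Of 26 other probe sets of 15 of these genes 25 gave the same sign and call, and 1, of NOTCH3, was not called (0.26, limma adjusted p = 0.481). The cause of these differences was not tested.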

How the results depend on the processing

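Counts of called probe sets changed little with quantile normalization, median centring, a trended variance, a filter on dim probe sets, only the arrays compared, or the replicate block. The replicate block, which treats arrays of the same number as paired, gave 21300 probe sets for GD2- minus CD24high and 16506 for GD2+ minus CD44high. For the difference between the sorts it gave 5864, and each count was within 1.5 times the main count. It brought the brightest probe set of CD44 past the threshold and changed no other named gene's call.

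Leaving out probe sets ending in _x_at or _s_at, which tests fewer probe sets, gave 12832 (5052 higher), 9357 (3367 higher) and 3002 (1673 higher, 1329 lower) in these 3 comparisons. A minimum of 2-fold gave 7682 (4847 higher, 2835 lower) for GD2- minus CD24high and 5221 (3439 higher, 1782 lower) for GD2+ minus CD44high. The GAPDH ratio as covariate gave 162 (68 higher, 94 lower) and 79 (54 higher, 25 lower), and the actin ratio 85 (30 higher, 55 lower) and 5 (4 higher, 1 lower). EPCAM then stood at -5.65 (SE 1.55, adjusted p = 0.161 in limma) with the GAPDH ratio, and COL3A1 at 9.47 (SE 3.22, adjusted p = 0.261 in limma). Most named genes lost their call for GD2- minus CD24high in this way. With the GAPDH ratio 83 lost the call, 10 were unchanged in direction and call, and 2 turned direction. With the actin ratio these counts were 85, 7 and 3. The control ratio differed by -3.721 for actin in place of -1.579 for GAPDH.

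Leaving out 1 array gave 17255 to 19692 probe sets (8090 to 9585 higher, 8874 to 10107 lower) for GD2- minus CD24high and 11771 to 13933 (5831 to 6844 higher, 5940 to 7089 lower) for GD2+ minus CD44high. It gave 3723 to 5672 (1982 to 3138 higher, 1674 to 2534 lower) for the difference between the sorts, and -1.701 to -1.504 for the GAPDH ratio. Of the values of the named genes without 1 array, 552 were unchanged in direction and call and 18 lost the call.

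Direction turned with the GAPDH ratio as covariate for CD44 (-0.67) and FOSB (3.25), and with the actin ratio for CD44 (-0.52), FOSB (3.20) and ADM (0.0487). None of these covariate values was called (limma adjusted p at least 0.631). Direction also turned with another probe set for CD44 (-3.02), COL1A1 (-0.39), DHCR7 (0.0674), DNAJB1 (0.26), EGR1 (-0.0912), TCF4 (-0.0498) and UGCG (0.0460). Of these probe sets only those of CD44 and COL1A1 were called. The cause was not tested.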
